A study of Homo sapiens with 30 samples.

Results

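BMP ligands and antagonists were followed here through 9 named genes of the 27348 that both RNA count tables held: the ligands BMP2, BMP4 and BMP7, the secreted antagonists GREM1, NOG and CHRD, the decoy receptor BAMBI, and the receptors BMPR1A and BMPR2. The genes were chosen by name and read in all 16 RNA libraries. The cells were RUES2, a single line of human embryonic stem cells, so every group was grown from that line, and all groups shared E7 medium with rock inhibitor. RNA was taken at 48 h or at 24 h, with 2 libraries a group. The 48 h groups were WNT_CPI_ACT (Wnt3a at 100 ng/mL with CPI-203 at 1 µM on day 1, then Activin A at 10 ng/mL on day 2), WNT_ACT (Wnt3a, then Activin A), WNT_E7 (Wnt3a, then no Activin A) and E7_ACT (Activin A on day 2 alone). The 24 h groups were WNT_CPI (Wnt3a with CPI-203), WNT (Wnt3a), E7_CPI (CPI-203) and E7 (neither). No untreated group was taken at 48 h, so time and Activin A cannot be told apart wherever E7_ACT is compared with E7. CPI-203 inhibits BET proteins, which read acetylated histones. The labels do not say whether the libraries of a group are separate cultures, and the spread behind every p-value here may be technical.

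BMPs are secreted dimers of the TGF-beta family. They bind type I receptors such as BMPR1A together with the type II receptor BMPR2, and the complex phosphorylates SMAD1, SMAD5 and SMAD9, which enter the nucleus with SMAD4 and switch on genes such as the ID family. Gremlin, noggin and chordin hold the ligands away from their receptors, and BAMBI resembles a type I receptor without a kinase. In early embryos, BMP, Wnt and Nodal signals together pattern the primitive streak, and Activin A is often used in culture to stand in for Nodal.

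Library totals ran from 36268324 to 43347733 counts. In the deposited table for replicate 1, the E7_CPI values followed the gene order of the replicate 2 table and were read in that order. Read this way, the library correlated with the others at Spearman 0.954 to 0.986, against at most 0.0071 in absolute value as deposited. It then lay beside its own replicate more closely than any other pair did: the SD of the log2 ratio between the E7_CPI libraries was 0.173, against 0.579 to 0.781 in the other 7 groups, and the chi-square per gene was 3.46, against 106 to 179. The difference was still above counting noise, and the libraries were kept as 2. Among the other 7 groups, deviations of the same replicate number from the group mean went together (r = 0.465 to 0.901 over 21 pairs of groups, 13968 genes). In the 7 pairs that include E7_CPI, r was -0.121 to -0.0392. For the 9 genes, calls are therefore given also without E7_CPI replicate 1, and with the block (replicate number as a term, that library left out), wherever these end or add a call. That block was chosen after the data were seen; where the block over all 16 libraries did not make the same call, its adjusted p stands beside.

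Stem cell markers were measured in every group, with the summed level of POU5F1, SOX2, NANOG, LIN28A, SALL4 and DPPA4 at 2380 to 3000 CPM (counts per library, scaled to be comparable) in the 24 h CPI-203 groups and 3490 to 5380 CPM in the others. NANOG averaged 1.27 CPM in WNT_CPI, against 167 CPM in WNT, and 0.871 CPM in E7_CPI, against 91.9 CPM in E7. The other markers changed less. POU5F1, SALL4 and DPPA4 were lower in both. LIN28A, the largest part of the sum, averaged 1790 CPM in WNT_CPI, against 2380 CPM in WNT, and 1870 CPM in E7_CPI, against 2250 CPM in E7. SOX2 averaged 300 CPM in WNT_CPI, against 351 CPM in WNT, but 413 CPM in E7_CPI, against 317 CPM in E7. Of 5 fibroblast markers DCN was at 0 in every group, and LUM and COL3A1 averaged at most 0.0137 and 0.119 CPM in a group. The summed level of the list was 128 to 372 CPM, nearly all of it COL1A1 and COL1A2. Neuroectoderm markers summed to 1.33 to 6.13 CPM and trophoblast or amnion markers to 1.42 to 13.9 CPM. The 4 mesendoderm markers EOMES, MIXL1, TBXT and GSC varied most between groups and are given beside BMP4, BMP2 and CHRD.

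Promoter sequence was shown for a ligand, a secreted antagonist and the decoy receptor whose RNA passed a test, as the 250 bases before the most upstream start site in RefSeq (GRCh38.p14), each written along its gene's own strand. BMP4 lies on the minus strand (chr14:53955051-53955300), GREM1 on the plus strand (chr15:32717754-32718003) and BAMBI on the plus strand (chr10:28677271-28677520). Capitals mark GGCGCC, a motif bound by BMP-activated SMADs that is its own reverse complement, and CAGAC or its reverse complement GTCTG, a shorter SMAD motif.
BMP4: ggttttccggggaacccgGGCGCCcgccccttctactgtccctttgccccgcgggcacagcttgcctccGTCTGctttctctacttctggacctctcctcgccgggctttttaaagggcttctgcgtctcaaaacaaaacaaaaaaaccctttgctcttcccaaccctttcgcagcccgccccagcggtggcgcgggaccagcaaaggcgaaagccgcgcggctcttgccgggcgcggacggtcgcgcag
GREM1: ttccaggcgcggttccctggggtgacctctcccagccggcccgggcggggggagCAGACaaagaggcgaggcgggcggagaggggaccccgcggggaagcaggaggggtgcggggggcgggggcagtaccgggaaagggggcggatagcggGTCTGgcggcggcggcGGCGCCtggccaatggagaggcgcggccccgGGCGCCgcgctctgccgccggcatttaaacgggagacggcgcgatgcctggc
BAMBI: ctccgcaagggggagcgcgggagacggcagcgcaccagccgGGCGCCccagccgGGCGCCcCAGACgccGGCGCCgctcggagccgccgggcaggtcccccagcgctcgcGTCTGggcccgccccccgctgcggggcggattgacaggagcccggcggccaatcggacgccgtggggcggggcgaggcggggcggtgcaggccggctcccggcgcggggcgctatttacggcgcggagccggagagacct
GGCGCC occurred in 16.4% and CAGAC, on either strand, in 38.0% of 35116 promoter windows of this length. Each window shown held both motifs, as did that of BMPR2. CHRD held GGCGCC alone and BMPR1A held neither, and the windows of BMP4 and GREM1 that are not shown held CAGAC alone or neither. The TCF/LEF motifs CTTTGAA (3.8% of windows) and CTTTGAT (2.26%) and the T-box motif AGGTGT (9.57%), also searched on both strands, were in none of the 9 windows of the 6 genes that the table held. No 2 matches overlapped. A match is a description of the letters only. BMP2, BMP7 and NOG had no entry in the table.

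**Figure D1:**
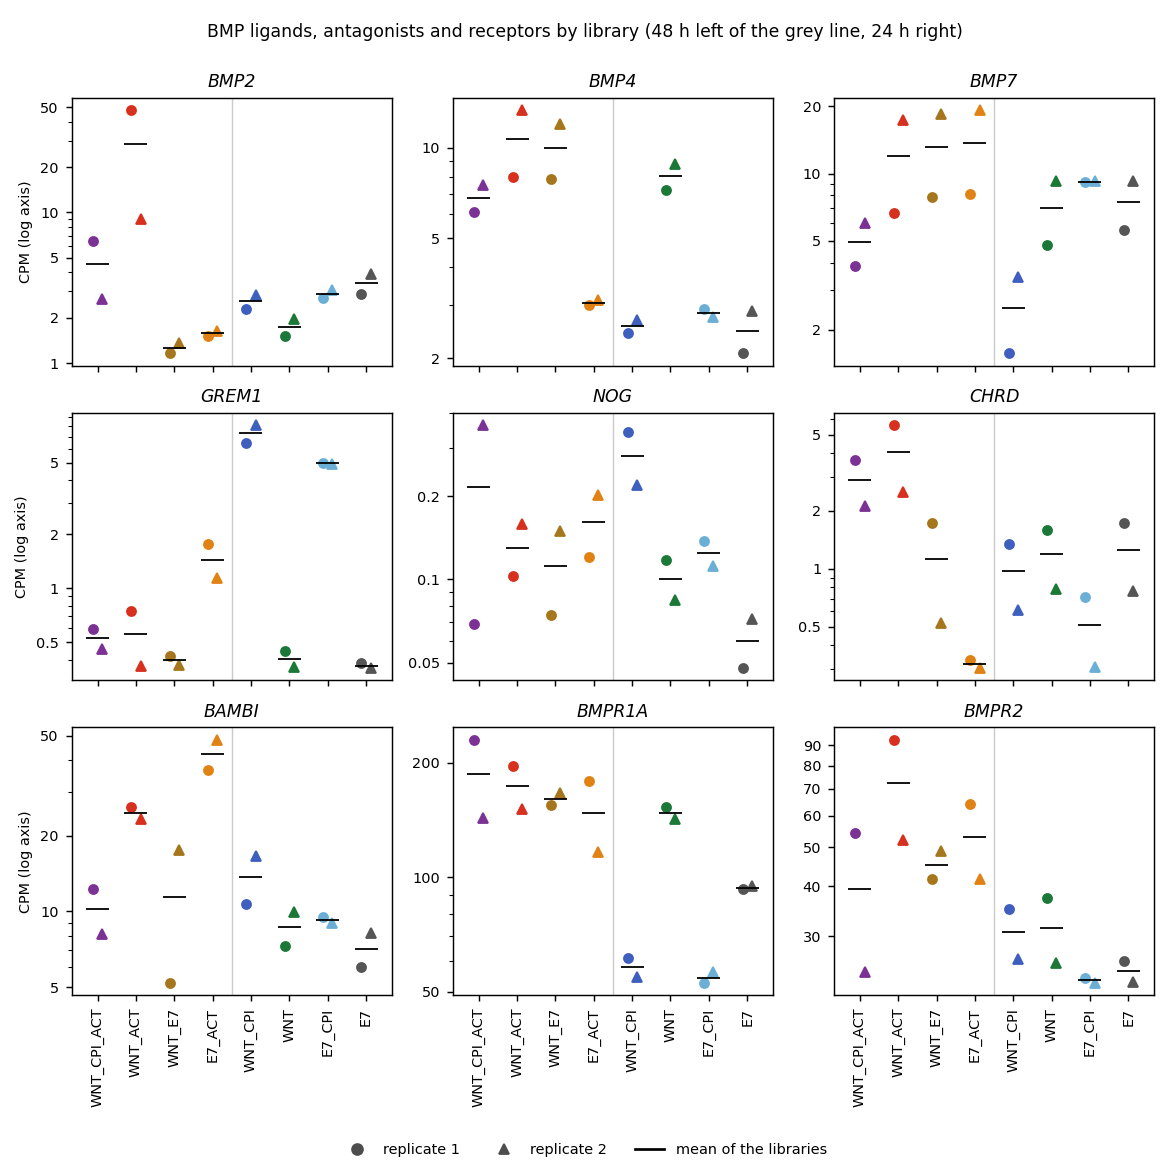
Level of each of the 9 genes in every library (CPM, log axis), with circles for replicate 1, triangles for replicate 2 and bars for the mean of both. GREM1 was highest in the 24 h CPI-203 groups (4.94 to 8.15 CPM), BMP2 in WNT_ACT (47.8 and 9.01 CPM) and BAMBI in E7_ACT (36.5 and 48.3 CPM).

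BMP4, the ligand that mesoderm formation requires in the mouse embryo, was at its highest group means in WNT_ACT, WNT_E7 and WNT, the groups that had Wnt3a without CPI-203. At 24 h it stood at 7.24 and 8.81 CPM in WNT libraries, against 2.07 and 2.87 CPM in E7 libraries. The groups did not overlap, and the difference was 1.70 on the log2 scale (SE 0.29, adjusted p = 0.0288 with edgeR's quasi-likelihood test). Fewer cells that express a gene and less of its RNA per cell cannot be told apart in such bulk samples. The summed level of the 4 mesendoderm markers was 43.5 and 28.5 CPM in WNT libraries, against 1.02 and 0.836 CPM in E7 libraries. In WNT_CPI libraries, where BMP4 stood at 2.43 and 2.68 CPM, the sum was 45.1 and 34.8 CPM. The part of such cells in the BMP4 result was not tested. Without E7_CPI replicate 1 the adjusted p was 0.0638 and with the block 0.000881, and leaving out any of the 4 compared libraries ended the call (log2 1.48 to 1.95, adjusted p = 0.106 to 0.338).

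With CPI-203 the BMP4 level was 2.43 and 2.68 CPM in WNT_CPI libraries, against 7.24 and 8.81 CPM in WNT libraries. Both WNT_CPI values were under both WNT values, and BMP4 fell by 1.65 (SE 0.29, adjusted p = 0.00175), a call that held when any compared library was left out (adjusted p up to 0.0199). WNT_CPI did not differ by the test from E7_CPI, which had 2.91 and 2.73 CPM. The test of the difference itself, the interaction of Wnt3a with CPI-203, gave -1.85 (SE 0.41) with an adjusted p of 0.724, so a different Wnt3a response with CPI-203 was not shown. With the block over all 16 libraries that p was 0.0497, and with the block without E7_CPI replicate 1 it was 0.196.

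At 48 h BMP4 stood at 8.0 and 13.3 CPM in WNT_ACT libraries, against 3.01 and 3.11 CPM in E7_ACT libraries. Both WNT_ACT values were above both E7_ACT values, and the difference was 1.80 (SE 0.29, adjusted p = 0.00878). Leaving out either E7_ACT library ended that call (adjusted p up to 0.104). In WNT_CPI_ACT the level was 6.12 and 7.50 CPM, against 2.43 and 2.68 CPM in WNT_CPI, and BMP4 rose by 1.42 (SE 0.29, adjusted p = 0.00471). The later group also had Activin A and no longer had Wnt3a or CPI-203. Time, Activin A and that withdrawal cannot be told apart in that comparison. Against WNT_ACT, WNT_CPI_ACT differed by -0.65 (SE 0.28, adjusted p = 0.25), where the block gave 0.0339 and the block over all 16 libraries 0.0595. The CPI-203 difference of BMP4 changed by 1.01 between 24 h and 48 h (SE 0.40, adjusted p = 0.136), a change that both blocks called (adjusted p = 0.0116, and 0.0225 over all 16 libraries).

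BMP2, a ligand closely related to BMP4, was highest where Wnt3a was followed by Activin A. It stood at 47.8 and 9.01 CPM in WNT_ACT libraries, against 1.16 and 1.37 CPM in WNT_E7 libraries and 1.52 and 1.65 CPM in E7_ACT libraries. Both WNT_ACT values were above every value of those groups, but the WNT_ACT libraries lay far apart. The difference was 4.49 (SE 0.70, adjusted p = 0.0296) against WNT_E7 and 4.17 (SE 0.69, adjusted p = 0.00956) against E7_ACT. The call against WNT_E7 was lost without E7_CPI replicate 1 (adjusted p = 0.0653), without WNT_ACT replicate 1 (2.83, adjusted p = 0.0797) and without either WNT_E7 library (adjusted p up to 0.309). The call against E7_ACT was lost without either E7_ACT library (adjusted p up to 0.118), and its value ran from 2.51 to 4.91 as single libraries were left out.

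In WNT_CPI_ACT libraries BMP2 stood at 6.44 and 2.69 CPM, against 47.8 and 9.01 CPM in WNT_ACT libraries. The groups did not overlap, although WNT_CPI_ACT replicate 1 came near WNT_ACT replicate 2, and BMP2 fell by 2.64 (SE 0.64, adjusted p = 0.0375). Without WNT_ACT replicate 1 the difference was -0.98 (adjusted p = 0.269), and the call was lost also without either WNT_CPI_ACT library and without E7_CPI replicate 1 (adjusted p = 0.0652). At 48 h the summed level of the 4 mesendoderm markers was higher in WNT_CPI_ACT and WNT_ACT than in the other groups. It was 250 and 36.2 CPM in WNT_CPI_ACT libraries and 1420 and 227 CPM in WNT_ACT libraries. WNT_E7 libraries had 9.81 and 6.59 CPM and E7_ACT libraries 6.69 and 4.58 CPM, with no marker at 0 in any of these groups. In each replicate the markers were higher and BMP2 lower in WNT_E7 than in E7_ACT. The part of such cells in the BMP2 result was not tested. At 24 h BMP2 lay between 1.52 and 3.89 CPM in all 4 groups and was called in no comparison there. The markers did not move with BMP2 at that time. They summed to 43.5 and 28.5 CPM in WNT libraries, with BMP2 at 1.52 and 1.96 CPM. E7 libraries had 1.02 and 0.836 CPM of the markers and 2.88 and 3.89 CPM of BMP2. WNT_CPI libraries had 45.1 and 34.8 CPM of the markers and 2.30 and 2.85 CPM of BMP2.

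BMP7, a ligand that can pair with BMP2 or BMP4, had its lowest group mean in WNT_CPI. It stood at 1.57 and 3.46 CPM in WNT_CPI libraries, against 4.78 and 9.23 CPM in WNT libraries. The groups did not overlap, replicate 2 was the higher library in both, and the difference was -1.48 (SE 0.65, adjusted p = 0.11), which the block called (adjusted p = 0.000119). The block alone also called the 3.85 and 6.02 CPM of WNT_CPI_ACT lower than the 6.66 and 17.5 CPM of WNT_ACT (-1.29, adjusted p = 0.32, and 0.0022 with the block). It called WNT_CPI_ACT higher than WNT_CPI (0.97, adjusted p = 0.308, and 0.00164 with the block). E7_ACT libraries had 8.10 and 19.3 CPM, against 5.58 and 9.31 CPM in E7 libraries, a difference of 0.88 that the block called (adjusted p = 0.0392) and the block over all 16 libraries did not (adjusted p = 0.183). WNT_CPI against E7_CPI, which had 9.17 and 9.23 CPM, gave -1.87 (SE 0.65, adjusted p = 0.567, and 0.0233 with the block).

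GREM1, the gene of the antagonist gremlin, was the member with the largest CPI-203 response at 24 h. It stood at 6.47 and 8.15 CPM in WNT_CPI libraries, against 0.445 and 0.364 CPM in WNT libraries, and at 5.0 and 4.94 CPM in E7_CPI libraries, against 0.381 and 0.358 CPM in E7 libraries. No library without CPI-203 at 24 h came near those with it. GREM1 rose by 4.16 (SE 0.36, adjusted p = 2.4e-05) with Wnt3a present and by 3.74 (SE 0.36, adjusted p = 5e-05) without it, and both calls held when any compared library was left out (adjusted p up to 0.000699 and 0.00123). The interaction was 0.42 (SE 0.48, adjusted p = 0.995), an estimate whose error leaves room for a difference in either direction.

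The GREM1 level was low again in the 48 h group that had had CPI-203 on day 1. WNT_CPI_ACT libraries had 0.596 and 0.460 CPM, against 6.47 and 8.15 CPM in WNT_CPI libraries, and GREM1 fell by 3.78 (SE 0.35, adjusted p = 4.6e-05). Against WNT_ACT, which had 0.743 and 0.369 CPM, WNT_CPI_ACT differed by -0.08 (SE 0.35, adjusted p = 0.978), and the libraries overlapped. The CPI-203 difference with Wnt3a therefore changed by -4.24 between the times (SE 0.50, adjusted p = 0.000514), a call that held in each of 8 fits with 1 library left out. In E7_ACT libraries GREM1 stood at 1.76 and 1.14 CPM, against 0.381 and 0.358 CPM in E7 libraries, and rose by 1.96 (SE 0.35, adjusted p = 0.0388). Without E7_CPI replicate 1 that p was 0.0907, and leaving out any of the 4 compared libraries ended the call (adjusted p = 0.0563 to 0.302). WNT_ACT against E7_ACT gave -1.37 (SE 0.34, adjusted p = 0.0525, and 0.0181 with the block).

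CHRD, the gene of chordin, a product of the organizer region, was highest in WNT_ACT and WNT_CPI_ACT. It stood at 5.61 and 2.50 CPM in WNT_ACT libraries, against 0.337 and 0.304 CPM in E7_ACT libraries. Both WNT_ACT values were above both E7_ACT values, and CHRD rose by 3.65 (SE 0.78, adjusted p = 0.0299). Leaving out WNT_ACT replicate 1 or either E7_ACT library ended the call (log2 2.96 to 4.12 over the 4 fits, adjusted p up to 0.21). Replicate 1 was higher than replicate 2 in every group. The block called CHRD in further comparisons: higher in WNT_ACT than in WNT_E7, at 1.73 and 0.522 CPM (1.85, adjusted p = 0.34, and 0.00467 with the block), and higher in WNT_CPI_ACT, at 3.67 and 2.13 CPM, than in WNT_CPI, at 1.35 and 0.608 CPM (1.57, adjusted p = 0.128, and 0.000834 with the block).

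CHRD was lower in E7_ACT and in E7_CPI than in E7 only in the blocked fit, and time and Activin A cannot be told apart in the first. E7_ACT differed from E7, which had 1.74 and 0.764 CPM, by -1.96 (SE 0.76, adjusted p = 0.456, and 0.0126 with the block). E7_CPI libraries had 0.714 and 0.307 CPM, a difference from E7 of -1.29 (SE 0.74, adjusted p = 0.209, and 0.033 with the block). The mesendoderm markers given beside BMP2 also had their highest group means in WNT_ACT and WNT_CPI_ACT, and their part in the CHRD result was not tested.

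NOG, the gene of noggin, was near the limit of detection, with 2 to 15 counts a library. It passed the filter on low counts and was called in no comparison. The highest counts were 3 and 15 in WNT_CPI_ACT libraries and 14 and 9 in WNT_CPI libraries, against 2 and 3 in E7 libraries.

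BAMBI was highest in the Activin A groups that had had no CPI-203. It stood at 36.5 and 48.3 CPM in E7_ACT libraries, against 6.01 and 8.19 CPM in E7 libraries. The groups were far apart, and BAMBI rose by 2.58 (SE 0.48, adjusted p = 0.0482). With RLE scaling the adjusted p was 0.0548, without E7_CPI replicate 1 it was 0.1, and without any 1 of the 4 compared libraries it was 0.159 to 0.404, while the block gave 0.00646. In WNT_CPI_ACT libraries it stood at 12.3 and 8.13 CPM, against 26.1 and 23.4 CPM in WNT_ACT libraries. Both WNT_CPI_ACT values were the lower ones, and the difference of -1.28 (SE 0.46, adjusted p = 0.149) was called by the block (adjusted p = 0.0449) and not by the block over all 16 libraries (adjusted p = 0.0528). The CPI-203 difference of BAMBI changed by -1.95 between 24 h and 48 h (SE 0.65, adjusted p = 0.0775), which both blocks called (adjusted p = 0.0226, and 0.0255 over all 16 libraries), as did DESeq2 (adjusted p = 0.0267). The WNT_E7 libraries were uneven, at 5.19 and 17.6 CPM, and WNT_ACT against them gave 1.12 (SE 0.46, adjusted p = 0.414).

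BMPR1A, the type I receptor, was lower with CPI-203 at 24 h and back among the other groups at 48 h. It stood at 61.4 and 54.6 CPM in WNT_CPI libraries, against 153 and 142 CPM in WNT libraries, and fell by 1.35 (SE 0.24, adjusted p = 0.00181), a call that held when any compared library was left out. E7_CPI libraries had 52.7 and 56.2 CPM, against 92.8 and 94.5 CPM in E7 libraries, and BMPR1A fell by 0.78 (SE 0.24, adjusted p = 0.0277). Both differences left no overlap between groups, but the second call was lost without E7_CPI replicate 1 (adjusted p = 0.141) and without any other compared library (adjusted p = 0.0891 or more). RefSeq lists the pseudogenes BMPR1AP1 and BMPR1AP2, and how the authors' counting treated reads shared with them was not given in the sources used here.

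On day 2, BMPR1A stood at 230 and 143 CPM in WNT_CPI_ACT libraries, against 61.4 and 54.6 CPM in WNT_CPI libraries, and rose by 1.69 (SE 0.24, adjusted p = 0.000614). Against WNT_ACT, with 196 and 151 CPM, WNT_CPI_ACT differed by 0.10 (SE 0.24, adjusted p = 0.935). The CPI-203 difference thus changed by 1.45 between the times (SE 0.34, adjusted p = 0.0169), and leaving out WNT replicate 1, WNT_CPI replicate 2 or WNT_ACT replicate 2 ended that call (adjusted p up to 0.0664). BMPR2, the type II receptor, lay between 22.9 and 93.0 CPM and was called in no comparison without the block. The block called it higher in E7_ACT, at 64.3 and 41.7 CPM, than in E7, at 26.0 and 23.1 CPM (1.11, SE 0.39, adjusted p = 0.347, and 0.0393 with the block, but 0.0554 with the block over all 16 libraries). It called BMPR2 lower in WNT_CPI_ACT, at 54.5 and 24.4 CPM, than in WNT_ACT, at 93.0 and 52.3 CPM, although those libraries overlapped (-0.88, SE 0.38, adjusted p = 0.247, and 0.0268 with the block).

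**Figure D2:**
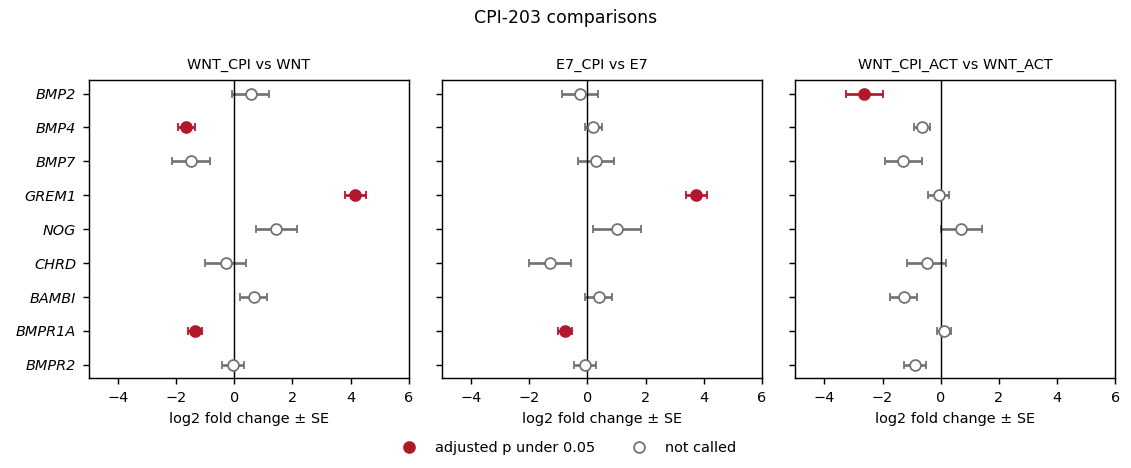
Log2 fold change ± SE of each gene in the 3 comparisons of CPI-203 groups with their controls, filled where the adjusted p was under 0.05. GREM1 lay at 4.16 in WNT_CPI vs WNT and 3.74 in E7_CPI vs E7, but at -0.08 in WNT_CPI_ACT vs WNT_ACT, where BMP2 lay at -2.64.

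Counted over the 9 genes, 3 were called in WNT_CPI vs WNT (1 higher, 2 lower), where 31% of the 17355 tested genes were called, and 2 in E7_CPI vs E7 (1 higher, 1 lower), where 32.7% were. Both shares of members were near or below those of all genes. In WNT_CPI_ACT vs WNT_ACT 1 member was called, lower, beside 5.9% of all genes. In WNT_CPI_ACT vs WNT_CPI 3 were called (2 higher, 1 lower) beside 26.9%, and for the change of the CPI-203 difference between the times 3 were called (1 higher, 2 lower) beside 13.3%. Those 2 comparisons share groups with the others, and so do not add independent counts. With Wnt3a and Activin A the background was smaller: 3 members were called in WNT_ACT vs E7_ACT beside 3.84%, 1 in WNT_ACT vs WNT_E7 beside 0.882%, 2 in E7_ACT vs E7 beside 0.599%, and 1 in WNT vs E7 beside 0.605%, all of them higher. WNT_CPI vs E7_CPI and the interaction had 0 members called with edgeR, beside 0.386% and 0.0115% of genes, with 1 member each at an unadjusted p under 0.05 and 0 with DESeq2. WNT_E7 vs WNT had 0 members and 0% of genes called with edgeR, where 0 members and 397 genes had an unadjusted p under 0.05, and DESeq2 called 0 members and 12 genes. With the block, 4 members were called in WNT_CPI vs WNT beside 52.9% of 17793 tested genes, 3 in E7_CPI vs E7 beside 44%, 5 in WNT_CPI_ACT vs WNT_ACT beside 20.2%, 5 in WNT_CPI_ACT vs WNT_CPI beside 48.4% and 5 for the change between the times beside 33.3%. It called 4 in WNT_ACT vs E7_ACT beside 11.4%, 2 in WNT_ACT vs WNT_E7 beside 6.35%, 5 in E7_ACT vs E7 beside 4.16%, 1 in WNT vs E7 beside 2.33%, 1 in WNT_CPI vs E7_CPI beside 0.534%, and 0 in WNT_E7 vs WNT and for the interaction, beside 0.0393% of genes each.

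**Figure D3:**
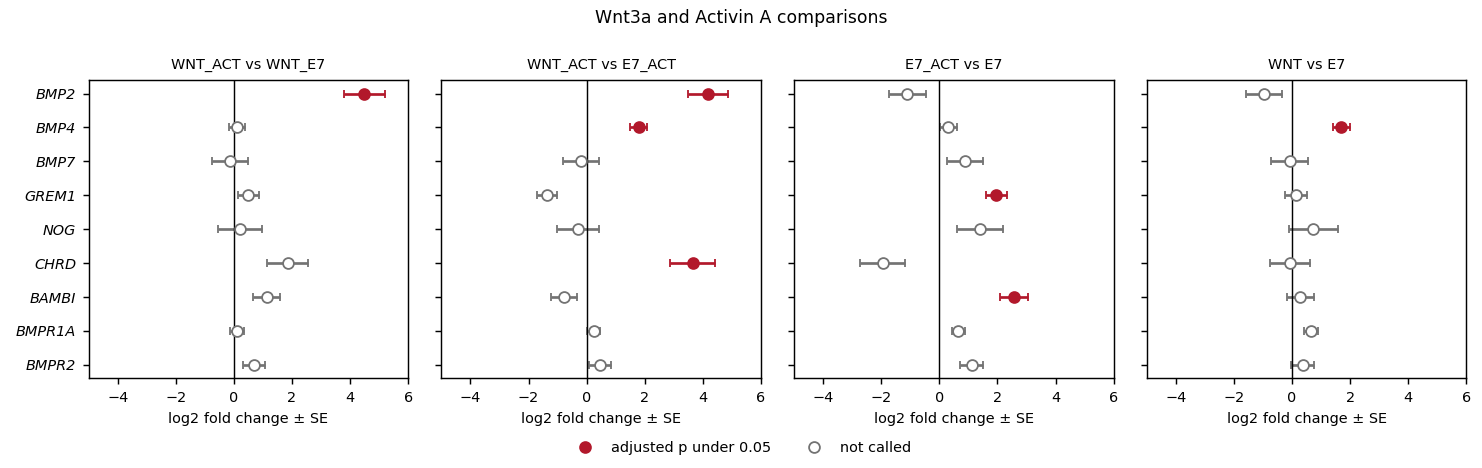
Log2 fold change ± SE of each gene in the 4 comparisons of Wnt3a or Activin A groups, filled where the adjusted p was under 0.05. BMP2 lay at 4.49 in WNT_ACT vs WNT_E7 and 4.17 in WNT_ACT vs E7_ACT, GREM1 at 1.96 and BAMBI at 2.58 in E7_ACT vs E7, and BMP4 at 1.70 in WNT vs E7.

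The genes of the pathway beyond the 9 were counted in the same way from lists. The shares of all genes called, without and with the block, are given above as their background. None was taken for the fit without E7_CPI replicate 1 and without the block. Among other ligands, 7 of 13 listed BMP and GDF genes could be tested, and BMP6 was the called member with CPI-203 at 24 h; the block called 2 members in each of those comparisons, adding BMP8A. BMP6 averaged 8.30 CPM in WNT_CPI and 1.93 CPM in WNT, and rose by 2.10 (SE 0.42, adjusted p = 0.00354). In E7_CPI it averaged 12.7 CPM and in E7 3.03 CPM, a rise of 2.06 (SE 0.42, adjusted p = 0.00362). At 48 h it averaged 0.44 CPM in WNT_CPI_ACT, and 8.30 CPM in WNT_CPI, a fall by 4.23 (SE 0.48). GDF6, with 5 counts over both WNT_CPI_ACT libraries and 31 over both WNT_CPI libraries, was the other member that fell there, where the block called 5 lower.

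Of the other secreted antagonists and modulators, 15 of 16 were tested. FST, the gene of follistatin, which binds Activin and also BMPs, averaged 257 CPM in WNT and 12.8 CPM in E7, a rise of 4.32 (SE 0.40, adjusted p = 0.000815). With CPI-203 it rose likewise, to 163 CPM in WNT_CPI, against 7.90 CPM in E7_CPI (4.37, SE 0.40). At 48 h it averaged 547 CPM in WNT_CPI_ACT and 77.6 CPM in WNT_ACT (2.82, SE 0.37, adjusted p = 0.00263). Each of those comparisons had FST as its only called member of the list; in WNT_CPI_ACT vs WNT_ACT the block called 2 higher and 3 lower. In WNT_CPI vs WNT 1 rose and 3 fell, beside 31% of all genes, and in E7_CPI vs E7 the counts were the same, beside 32.7%. FSTL1 rose (0.50, SE 0.16, and 0.49, SE 0.16), and VWC2, SOST and CHRDL1 fell. VWC2 and SOST had few counts, 3 and 1 over both WNT_CPI libraries, against 54 and 13 over both WNT libraries. With the block the counts were 2 higher and 5 lower in WNT_CPI vs WNT, beside 52.9% of all genes, and 3 higher and 2 lower in E7_CPI vs E7, beside 44%, and VWC2 was not called in E7_CPI vs E7 (adjusted p = 0.0345, and 0.0927 with the block). Without E7_CPI replicate 1 the FSTL1 calls were lost in both comparisons, and those of VWC2 and SOST in E7_CPI vs E7, which left 0 higher and 3 lower and 0 higher and 1 lower. CHRDL1, a chordin-like antagonist picked for its level after its values were seen, averaged 14.1 CPM in WNT_CPI and 45.9 CPM in WNT (-1.70, SE 0.23). CER1, an antagonist made in anterior endoderm, had 6024 counts over both WNT_CPI_ACT libraries and 2 over both WNT_CPI libraries (11.29, SE 3.45, adjusted p = 0.0361). That CER1 call was lost without E7_CPI replicate 1 (adjusted p = 0.0556). Both WNT_ACT libraries, without CPI-203, had 81531 counts of CER1, and WNT_CPI_ACT vs WNT_ACT gave -3.92 (SE 2.05, adjusted p = 0.367).

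All 6 listed proteases that cut chordin or BMP precursors were tested, and 3 rose and 0 fell with CPI-203 at 24 h, both with and without Wnt3a, beside 31% and 32.7% of all genes called in either direction. With the block 3 rose and 1 fell in both, the added one being FURIN, which cleaves precursors: it averaged 36 CPM in WNT_CPI and 62.8 CPM in WNT (-0.80, adjusted p = 0.0763, and 4.2e-05 with the block), and 39.5 CPM in E7_CPI and 46.0 CPM in E7 (-0.22, adjusted p = 0.627, and 0.00334 with the block). TLL2, a tolloid-like protease, averaged 32.4 CPM in WNT_CPI and 7.11 CPM in WNT (2.19, SE 0.43), and 18.8 CPM in E7_CPI and 2.33 CPM in E7 (3.01, SE 0.45). PCSK5, which cleaves precursors, rose by 1.26 (SE 0.16) in WNT_CPI vs WNT and by 0.89 (SE 0.15) in E7_CPI vs E7. The third was BMP1, the tolloid protease, with 0.87 and 0.80; its call in E7_CPI vs E7 was lost without E7_CPI replicate 1 (adjusted p = 0.0646). PCSK5 averaged 57.9 CPM in E7_ACT and 19.0 CPM in E7, and rose by 1.61 (SE 0.16, adjusted p = 0.0022). In WNT_ACT it averaged 12.6 CPM, lower than in E7_ACT by 2.20 (SE 0.16, adjusted p = 0.000124). BMP1 was the other called member in WNT_ACT vs E7_ACT and rose by 1.04 (adjusted p = 0.026). That BMP1 call was lost without E7_CPI replicate 1 (adjusted p = 0.0524).

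Of the other receptors and co-receptors, 8 of 9 were tested. In WNT_CPI vs WNT 2 rose and 3 fell, beside 31% of all genes. In E7_CPI vs E7 1 rose and 3 fell, beside 32.7%. ACVR2B, a type II receptor shared with Activin, averaged 43.7 CPM in WNT_CPI and 170 CPM in WNT (-1.96, SE 0.16, adjusted p = 1.3e-05), and 41.6 CPM in E7_CPI and 159 CPM in E7 (-1.93, SE 0.16). RGMB, a BMP co-receptor, averaged 110 CPM in WNT and 23.2 CPM in E7, a rise of 2.25 (SE 0.22, adjusted p = 0.0011). It averaged 35.0 CPM in WNT_CPI and 110 CPM in WNT (-1.65, SE 0.21), and 35.3 CPM in E7_CPI and 23.2 CPM in E7 (0.61, SE 0.21). The interaction of Wnt3a with CPI-203 for RGMB was -2.26 (SE 0.30, adjusted p = 0.0715), so a different CPI-203 response with Wnt3a was not shown. RGMA and ACVR2A were the members that rose in WNT_CPI vs WNT, by 0.92 and 0.86. Without E7_CPI replicate 1 the counts were 0 and 3 in WNT_CPI vs WNT and 0 and 1 in E7_CPI vs E7, where ACVR2B was the member still called; the block gave 2 and 3 in both.

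All 11 SMADs and regulators were tested. SMAD1, a signal carrier, averaged 12.8 CPM in WNT_CPI and 35.4 CPM in WNT, and fell by 1.47 (SE 0.14, adjusted p = 3.4e-05). In E7_CPI it averaged 10.9 CPM and in E7 28.5 CPM, a fall by 1.39 (SE 0.14). SKIL, a repressor of SMAD-driven transcription, fell by 4.33 (SE 0.61) in WNT_CPI vs WNT and fell by 4.25 (SE 0.61) in E7_CPI vs E7, and SKI, a related repressor, rose by 0.80 (SE 0.25) in E7_CPI vs E7. SMAD6 and SMAD7, the inhibitory SMADs, each rose by 3.12 in E7_ACT vs E7, where time and Activin A cannot be told apart. SMAD6 rose to 5.60 CPM, against 0.644 CPM, and SMAD7 to 111 CPM, against 12.8 CPM. In WNT_ACT SMAD7 averaged 34.3 CPM, and WNT_ACT vs E7_ACT gave -1.70 (SE 0.40, adjusted p = 0.0455). That SMAD7 call was lost without E7_CPI replicate 1 (adjusted p = 0.0806). At 48 h SMAD6 averaged 2.04 CPM in WNT_CPI_ACT and 6.72 CPM in WNT_ACT (-1.72, SE 0.45, adjusted p = 0.0495). It was the 1 called member there, beside 5.9% of all genes. That call of SMAD6 (adjusted p = 0.0821) and that of SKI in E7_CPI vs E7 (adjusted p = 0.12) were lost without E7_CPI replicate 1. The block called 3 lower in WNT_CPI_ACT vs WNT_ACT, 3 higher in E7_ACT vs E7, 1 higher and 2 lower in WNT_CPI vs WNT, and 2 higher and 2 lower in E7_CPI vs E7.

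Of the 12 BMP targets, 6 rose and 1 fell in WNT_CPI vs WNT (median log2 1.42, against -0.01 over all genes), and 7 rose and 0 fell in E7_CPI vs E7 (median 2.02, against -0.05). Of all genes 31% and 32.7% were called in these comparisons. With the block 8 rose and 1 fell in WNT_CPI vs WNT, beside 52.9%, and 6 rose and 1 fell in E7_CPI vs E7, beside 44%. The counts without E7_CPI replicate 1 were 5 and 1 in WNT_CPI vs WNT and 4 and 0 in E7_CPI vs E7. HAND1 and DLX5, transcription factors of heart and skeletal development, had 230 and 92 counts over both WNT_CPI libraries, against 2 and 1 over both WNT libraries. ID1, the classic early target, was the member that fell in WNT_CPI vs WNT: it averaged 3.40 CPM in WNT_CPI and 22.3 CPM in WNT (-2.71, SE 0.63, adjusted p = 0.00823). In E7_CPI it averaged 5.75 CPM and in E7 10.5 CPM (-0.87, adjusted p = 0.298), which the block called lower (adjusted p = 0.00951), while the block did not call HEY1, higher there without it (adjusted p = 0.0276, and 0.0523 with the block). ID2 and ID4 were among the members that rose with CPI-203 at 24 h. ID2 averaged 86.7 CPM in WNT_CPI and 34.7 CPM in WNT (1.32, SE 0.19), and 71.8 CPM in E7_CPI and 14.9 CPM in E7 (2.27, SE 0.20). ID4 averaged 22.1 CPM in WNT_CPI and 3.47 CPM in WNT (2.67, SE 0.23), and 19.8 CPM in E7_CPI and 3.49 CPM in E7 (2.50, SE 0.23). Between WNT and E7, ID2 rose by 1.22 (SE 0.19, adjusted p = 0.0184). In E7_ACT vs E7 the 2 called members rose: HEY1 to 10.9 CPM, against 0.715 CPM (3.92, SE 0.59), and ID4 to 9.31 CPM, against 3.49 CPM (1.41, SE 0.22), the second lost without E7_CPI replicate 1 (adjusted p = 0.0532), beside 0.599% of all genes. The block called 5 higher there, beside 4.16%: it added GATA2, GATA3 and ID1, which averaged 98.3 CPM in E7_ACT and 10.5 CPM in E7 (3.22, SE 0.64, adjusted p = 0.0539, and 0.000177 with the block). In WNT_ACT vs E7_ACT 2 rose (ATOH8 and ID2) and 3 fell, beside 3.84% of all genes. HEY1 fell to 1.77 CPM, against 10.9 CPM (-2.62, SE 0.55), and GATA2 and ID4 fell too. The block called 2 higher and 4 lower, and without E7_CPI replicate 1 the counts were 2 and 0. In WNT_CPI_ACT vs WNT_CPI 0 rose and 4 fell (HAND1, DLX5, GATA2 and ID4), beside 26.9%. There the block called 1 and 7, and the counts without E7_CPI replicate 1 were 0 and 4. In WNT_CPI_ACT vs WNT_ACT 1 rose and 1 fell, beside 5.9% of all genes. ID2 rose, at 94.3 CPM against 39.0 CPM (1.27). GATA2 fell, with 3 counts over both WNT_CPI_ACT libraries against 18 over both WNT_ACT libraries. The block called 2 and 2 there, and without E7_CPI replicate 1 the GATA2 call was lost (adjusted p = 0.0789).

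**Figure D4:**
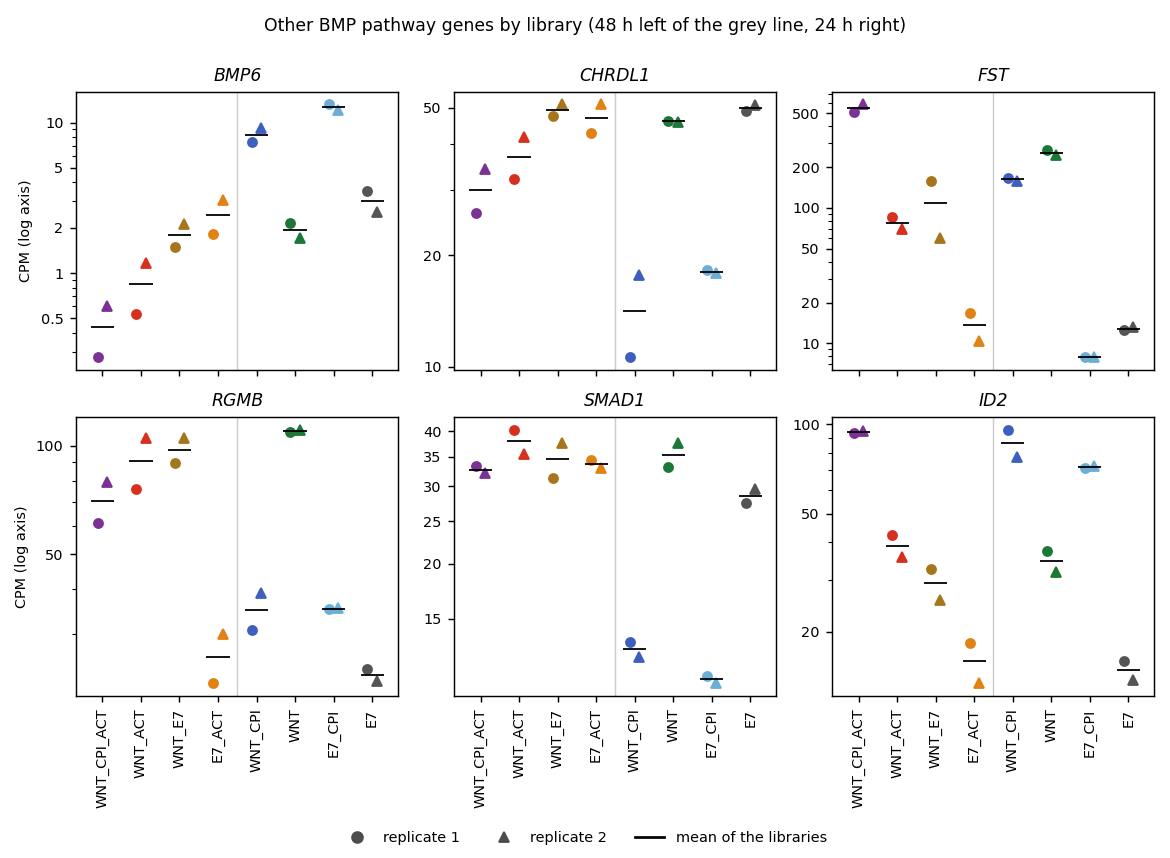
Level of 6 further pathway genes in every library (CPM, log axis), with circles for replicate 1, triangles for replicate 2 and bars for the mean of both. They were chosen after their values were seen. SMAD1 stood at 10.9 and 12.8 CPM on average in the 24 h CPI-203 groups and above 28 CPM in the other groups, while BMP6 averaged 12.7 and 8.30 CPM in those groups.

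Genes whose pattern over the 8 group means was most like that of a called member were taken from 17354 tested genes by Pearson's r of log2 CPM. The points are few and each is a mean of 2 libraries, so these are descriptions. BMP2 was most like P3H2 (r = 0.967), LOC105370401 and GATA6-AS1, whose counts may not be separable from those of its antisense partner. BMP4 was most like LURAP1L (r = 0.99), DSEL and LRFN5, and GREM1 like TERC (r = 0.989), TRIM62 and BTD. CHRD was most like FOLR1 (r = 0.975), ARMCX5 and SLC10A7, BAMBI like FAM157C (r = 0.974), and BMPR1A like ANP32B (r = 0.994), ANKRD9 and LDB2. Between members, GREM1 and BMPR1A ran opposite (r = -0.828), and BMP4 and BMPR1A (0.784), BAMBI and BMPR2 (0.752) and BMP2 and CHRD (0.747) ran together.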

How the data were processed

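RNA of 16 libraries in 8 groups was analysed. The deposited values are raw counts per gene, made by the authors with 1 table per replicate number. Per the submitters' processing notes the tools were featureCounts, DESeq2, Bowtie2, deepTools and MACS2. The aligner and build behind the counts, and whether strand was used, are not given in the sources used here. The authors' E7_CPI replicate 1 column was put into the order of the other table's genes. The deposited list of 313223 ATAC peak positions has no sample values, and only 13.0% of GRCh38 promoters overlapped it, so it was not used.

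Counts were fitted with edgeR 4.0.16 (limma 3.58.1, R 4.3.3): filterByExpr by group (17355 genes kept, all 9 members among them), TMM scaling, and a 2-sided quasi-likelihood F-test in a model of 8 groups with 8 residual degrees of freedom. Adjustment was by Benjamini-Hochberg across every tested gene, with calls at an adjusted value under 0.05. Log2 fold changes carry the SE |log2 fold change| over the square root of F. CPM were computed from the TMM-scaled totals. Replicate numbers pair the samples in the 7 groups other than E7_CPI, from the correlation of their deviations and not from the labels. Alternatives were the replicate block, RLE scaling, library totals alone, no filter, DESeq2 1.42.0, compared groups alone and single libraries left out. Both fits without E7_CPI replicate 1 were added after the data were seen. The procedure was tested on simulated data.

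The members and lists were chosen with earlier results of these data known. Named genes were all 9 members, and from each pathway list at most the 2 largest called rises and falls per comparison. CHRDL1, BMP1, some results of GATA2 and ID4, and the genes in the plot of further pathway genes were picked after their values were seen. Promoters are from RefSeq (GRCh38.p14), 9 of them for 6 members. Counting error is only part of the spread, and 2 libraries a group limit every estimate. For likeness of pattern, the 3 genes with the highest Pearson's r were taken for each called member, and some of them are not reported here.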

Additional observations from a re-analysis of the deposited data

Results flagged for a closer look

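Of the 9 genes, 3 had a CPI-203 difference that changed between 24 h (WNT_CPI vs WNT) and 48 h (WNT_CPI_ACT vs WNT_ACT) by a test of the change itself. The 48 h groups also had Activin A on day 2, with Wnt3a and CPI-203 given on day 1 only. Time, Activin A and the withdrawal of Wnt3a and CPI-203 cannot be told apart. GREM1 changed by -4.24 on the log2 scale (adjusted p = 0.000514). Its CPI-203 difference was -0.08 at 48 h and 4.16 at 24 h. BMPR1A changed by 1.45 (adjusted p = 0.0169), with differences of 0.10 at 48 h and -1.35 at 24 h. BMP2 changed by -3.20 (adjusted p = 0.037), with differences of -2.64 at 48 h and 0.57 at 24 h. The BMP2 change was called without WNT_CPI_ACT replicate 1 and without WNT_ACT replicate 2 but not without any 1 of the other 6 libraries (lowest size -1.55, without WNT_ACT replicate 1), and not without E7_CPI replicate 1 (adjusted p = 0.0592). The causes were not tested.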

How the results depend on the processing

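Counts of called members are given as alternative and main value. Fitting the compared groups alone gave 0 against 1 in WNT vs E7, 0 against 2 in E7_ACT vs E7, 0 against 3 in WNT_ACT vs E7_ACT, 0 against 1 in WNT_ACT vs WNT_E7 and in WNT_CPI_ACT vs WNT_ACT, and 1 against 3 for the change of the CPI-203 difference. RLE scaling gave 1 against 2 in E7_ACT vs E7. Without E7_CPI replicate 1 the counts were 0 against 1 in WNT vs E7, WNT_ACT vs WNT_E7 and WNT_CPI_ACT vs WNT_ACT, 0 against 2 in E7_ACT vs E7 1 against 2 in E7_CPI vs E7 and 2 against 3 for the change. DESeq2 gave 4 against 3 in WNT_ACT vs E7_ACT, adding GREM1, and for the change, adding BAMBI, and the same counts elsewhere.

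The replicate block gave 2 against 1 in WNT_ACT vs WNT_E7, 1 against 0 in WNT_CPI vs E7_CPI, 3 against 1 in WNT_CPI_ACT vs WNT_ACT, 5 against 3 in WNT_CPI_ACT vs WNT_CPI and for the change of the CPI-203 difference, and 1 against 0 for the interaction. It also gave 3 against 2 in E7_CPI vs E7 and E7_ACT vs E7, and 4 against 3 in WNT_CPI vs WNT and WNT_ACT vs E7_ACT. The block without E7_CPI replicate 1 gave 5 against 2 in E7_ACT vs E7, 2 against 1 in WNT_ACT vs WNT_E7, 1 against 0 in WNT_CPI vs E7_CPI, 5 against 1 in WNT_CPI_ACT vs WNT_ACT, and 5 against 3 in WNT_CPI_ACT vs WNT_CPI and for the change. It also gave 3 against 2 in E7_CPI vs E7, and 4 against 3 in WNT_CPI vs WNT and WNT_ACT vs E7_ACT. Neither block ended a call of the 9 genes. The pairing rests on the data and not on the labels.

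As single libraries were left out, counts ran 0 to 0 in WNT vs E7 and E7_ACT vs E7, 1 to 1 in E7_CPI vs E7, 0 to 3 in WNT_ACT vs E7_ACT, 0 to 1 in WNT_ACT vs WNT_E7 and WNT_CPI_ACT vs WNT_ACT, 1 to 3 for the change, and stayed at 3 in WNT_CPI vs WNT and WNT_CPI_ACT vs WNT_CPI. No called value reversed in these alternatives, and 61 of 1358 recomputed values, none called, changed sign. Library totals alone and no filter changed no call. Causes were not tested. Library totals alone put the median of all genes in E7_CPI vs E7 at -0.14, against -0.05 with TMM. With 2 libraries a group, counts as low as those of NOG bound little.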
